A study of Mus musculus with 6 samples.

Results

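The BCL2 family decides whether a cell under stress releases cytochrome c from its mitochondria and dies. The genes described here are 10 members of that family, chosen by name from the platform annotation: the pro-survival genes Bcl2, Bcl2l1 (Bcl-xL) and Mcl1, the BH3-only genes Pmaip1 (Noxa), Bcl2l11 (Bim), Bid, Bik and Bmf, and the pore-forming effectors Bak1 and Bok. They were chosen with earlier results of these data known. They are 10 of 18193 genes measured, and 33 of 45037 probe sets carried their symbols. All 33 were kept, with no filter on low values. The study compared mouse embryonic stem cells with intact Dido3 (wild type) and cells of the genotype Dido3deltaCT, in which Dido3 lacks its C-terminal part (truncated). Dido3 is a protein of the gene Dido1, death inducer-obliterator. Both groups were grown side by side in self-renewal medium with leukemia inhibitory factor (LIF), and RNA of 3 biological replicates per group was hybridised to Affymetrix mouse expression arrays. The labels do not say how many independent lines or clones each group holds, so the p-values measure the spread between these samples, which may be that of cultures of 1 line.

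Pro-survival proteins hold the effectors Bak and Bax in check at the outer mitochondrial membrane. BH3-only proteins are made or activated on stress, bind the groove of the pro-survival proteins and so free the effectors, and some also activate the effectors directly. Noxa binds Mcl-1 above all and promotes its degradation, while Bim binds all the pro-survival proteins. Mouse embryonic stem cells are known to stand close to the threshold of apoptosis, and Mcl-1 and Bcl-xL, both targets of LIF and STAT3 signalling, are among the proteins that keep them alive.

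Values are log2 expression values per probe set as deposited, and a difference above 0 means more RNA in the truncated cells. Array medians lay between 4.8 and 4.86. The mean of 12 embryonic stem cell markers lay between 10.64 and 10.93 on the 6 arrays, and all 12 were above the median of all probe sets, 4.83, which is used below as the limit of clear expression. Of the 5 probe sets of Dido1, 2 fell in the truncated cells, by 1.5 and 1.47 (limma adjusted p = 0.013 and 0.00106), and 3 did not pass. Of these 3, 1437182_at was higher on every truncated array, by 0.68 on average (limma adjusted p = 0.0721). The others differed by 0.049 and 0.033. Where each probe set of Dido1 lies relative to the removed part was not analysed here. By values averaged over the 6 arrays, each gene by its brightest probe set, 11698 of all 18193 genes lay above that limit. Of 20 measured fibroblast markers 18 did. Their mean was 5.37 (wild-type replicate 3) and 6.52 (truncated replicate 2) in a pair of arrays whose poly-A spike-in controls averaged 12.1 and 12.5, called the high spike-in pair. In the 4 remaining arrays the fibroblast mean was 7.88 to 8.5 and the spike-in mean 6.12 to 7.85. The groups also differed in Y-linked RNA: the mean of 4 Y-linked genes was 6.11 ± 0.12 against 3.77 ± 0.059 in the truncated cells (SD over 3 arrays; two-sided exact permutation p = 0.1, the smallest this design allows). Of the 4, Kdm5d lay below the limit in both groups, at 3.29 and 3.2. The X-linked gene Xist was at 8.74 in the wild type and 9.31 in the truncated cells (difference 0.57, limma adjusted p = 0.0483). Its adjusted p was 0.11 with the replicate block and reached 0.972 among the alternatives. Of 617 X-linked genes 121 rose (19.6%) and 3 fell (0.486%), so the truncation and the sex chromosomes cannot be told apart in any difference below.

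The truncated cells differed from the wild type in 1 of the 10 genes. Pmaip1 rose, and the other 9 did not pass the test. Across the array 2.7% of genes rose and 1.97% fell (limma, adjusted p under 0.05 over all genes), 4.67% in all. The 10 members were chosen with earlier results of these data known, so setting 1 of 10 beside those shares is no test. At the level of probe sets 1 of 33 rose and none fell, where 1.68% of all probe sets rose and 1.12% fell, 2.8% in all. The median difference of the 10 genes was 0.014, that of all genes 0.0071. The 3 pro-survival genes had a median of 0.065, with values from −0.11 to 0.13, and the 7 pro-apoptotic genes a median of −0.025, with values from −0.14 to 2.04. Without Pmaip1, the 6 other pro-apoptotic genes lay between −0.14 and 0.068. All these values take each gene by its brightest probe set. With the mean of a gene's probe sets, Mcl1 turned from 0.13 to −0.24 and Bcl2l1 from −0.11 to 0.017, so the pro-survival values depend on that choice.

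**Figure D1:**
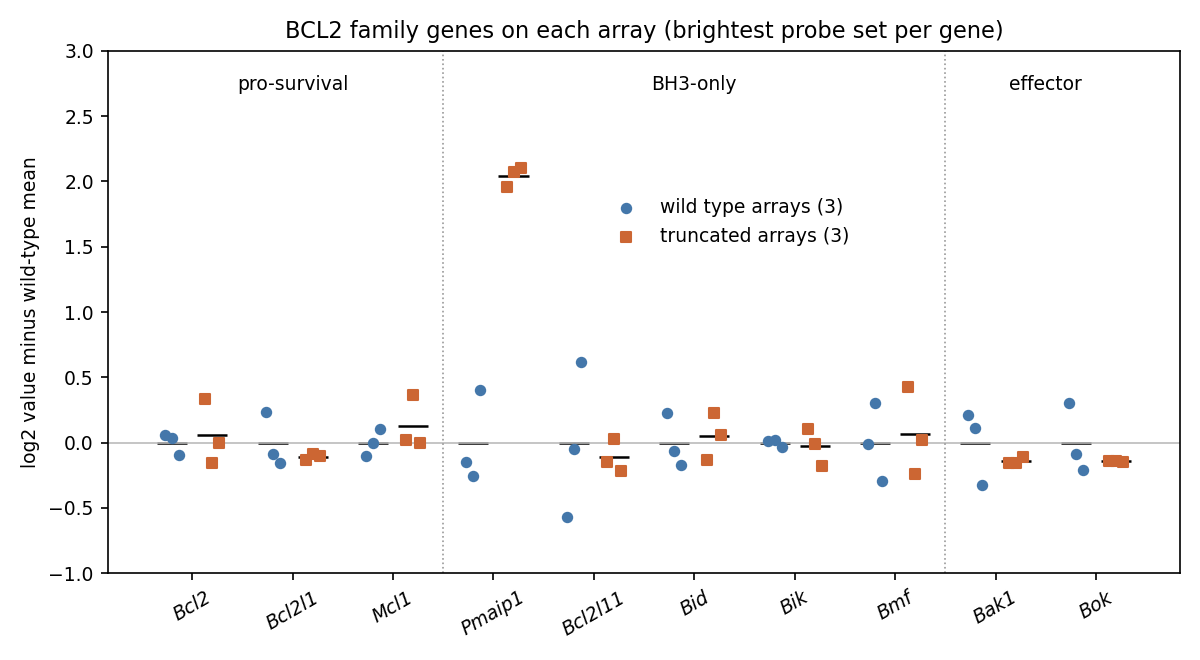
Log2 value of the brightest probe set of each of the 10 genes on each array, minus that gene's wild-type mean (circles, 3 wild-type arrays; squares, 3 truncated arrays; bars, group means). The 3 truncated values of Pmaip1 lie about 2.04 above the wild-type mean, clear of its wild-type values, while for the other 9 genes the groups overlap.

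Averaged over the 3 pro-survival genes, the deviation from each gene's own wild-type mean was 0.074, 0.048 and −0.037 on truncated replicates 1 to 3, and 0.063, −0.015 and −0.048 on the wild-type arrays. The ranges of both groups overlapped, with each gene read by its brightest probe set alone. Over the 7 pro-apoptotic genes the same mean was 0.27, 0.26 and 0.22 on the truncated arrays, against −0.0024 to 0.0044 on the wild-type arrays. Without Pmaip1 it was −0.0072, −0.046 and −0.096 on the truncated arrays and −0.07 to 0.04 on the wild-type arrays, so the groups overlapped again. The separation of the pro-apoptotic mean therefore rested on Pmaip1 alone.

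Pmaip1 encodes Noxa, a small BH3-only protein first known as a target of p53 that antagonises Mcl-1. Its single probe set, 1418203_at, read 6.15, 6.04 and 6.70 on the wild-type arrays and 8.25, 8.37 and 8.40 on the truncated arrays. All truncated values lay above all wild-type values, and the highest wild-type value was that of replicate 3, the array with the lowest fibroblast mean. The means were 6.30 ± 0.35 and 8.34 ± 0.081 (SD, n = 3 each), a difference of 2.04 (SE 0.18, 95% interval 1.63 to 2.46), or 4.12-fold (limma adjusted p = 0.00459). Within the 4 low spike-in arrays the difference was 2.23, and within the high spike-in pair 1.67. With the fibroblast mean as a covariate it was 2.05 (adjusted p = 0.000588). Pmaip1 kept its direction and its call under every alternative run, with a difference between 1.91 and 2.24 when each array was left out and an adjusted p of at most 0.0454.

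**Figure D2:**
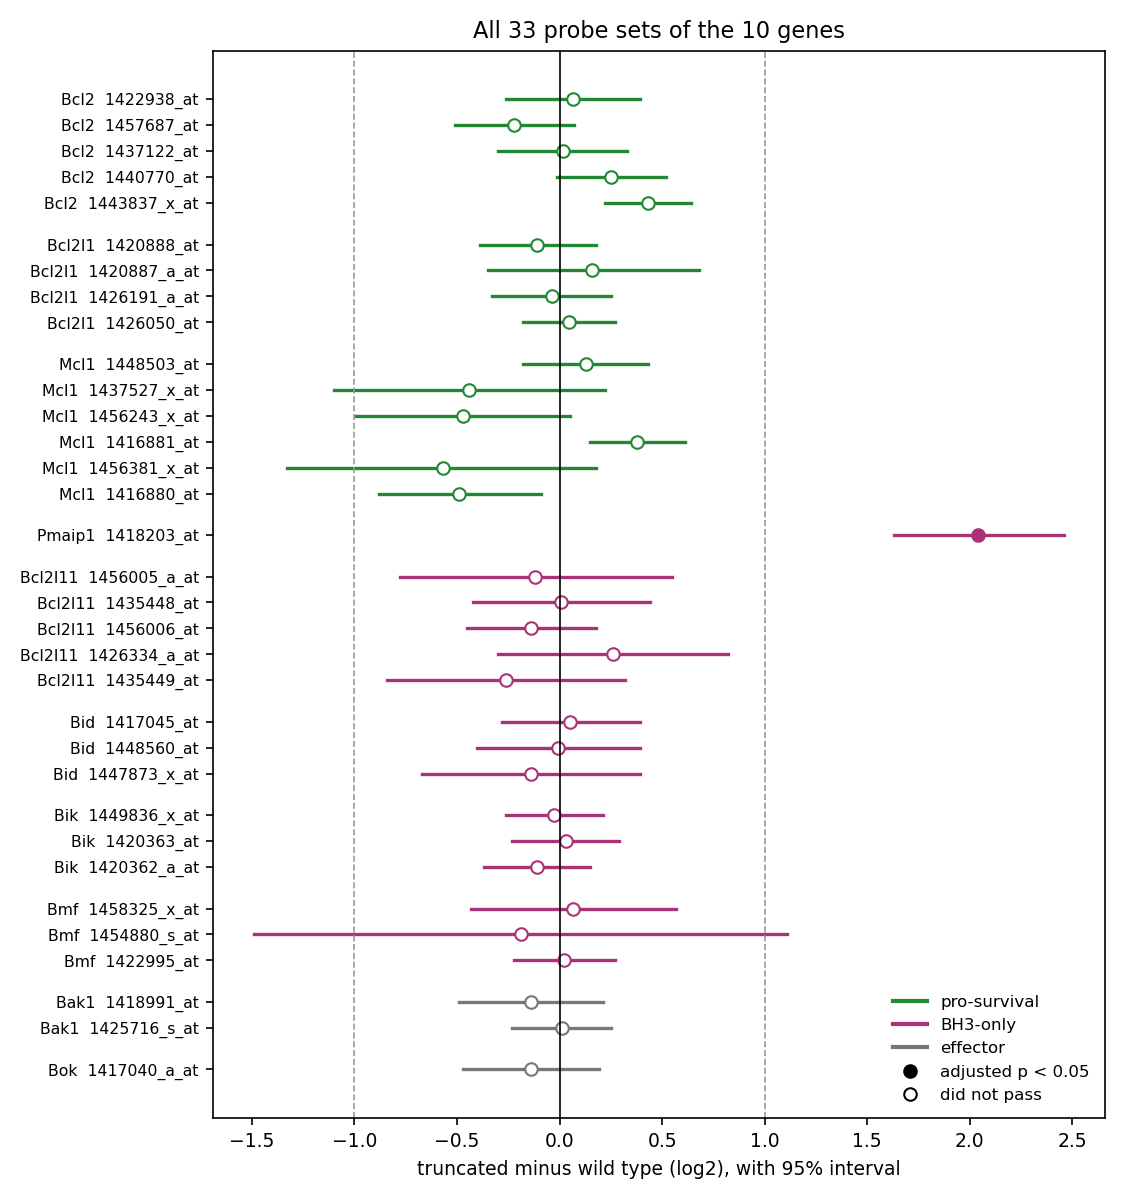
Difference between truncated and wild-type means for all 33 probe sets (points; filled, adjusted p under 0.05; open, did not pass) with limma's 95% intervals (lines), coloured by role; dashed lines mark 1 log2 unit either way. Pmaip1 alone stands past 1 unit, and 29 of the 33 intervals lie wholly inside the dashed lines.

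For the 9 genes that did not pass, the intervals bound the size of a difference that could have been missed on the probe set concerned, not for the gene as a whole. A change of 1 log2 unit is a 2-fold change, and the 95% interval of the brightest probe set lay within 1 unit on either side for all 9; over all genes 89.7% of intervals did. For 7 of the 9 it lay within 0.5 units on either side, the exceptions being Bcl2l11 and Bmf. Dimmer probe sets of Mcl1 and Bmf gave wider bounds. The interval was −1.1 to 0.22 for 1437527_x_at and −1.33 to 0.18 for 1456381_x_at of Mcl1. It was −1.49 to 1.11 for 1454880_s_at of Bmf, so changes past 1 unit were not bounded there. Each array measures a mixture, so fewer cells of a type and less RNA per cell cannot be told apart in any of these values.

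Mcl1 encodes the short-lived pro-survival protein that Noxa binds, and its 6 probe sets did not move together. The brightest, 1448503_at, read 11.30, 11.40 and 11.51 on the wild-type and 11.42, 11.77 and 11.40 on the truncated arrays. The groups overlapped, and the difference was 0.13 (95% interval −0.18 to 0.43, limma adjusted p = 0.749). A second probe set, 1416881_at, read 9.83, 9.89 and 9.63 against 10.20, 10.18 and 10.13. Every truncated array was higher there, by 0.38 on average (SE 0.097), which did not pass (adjusted p = 0.103). Probe set 1416880_at went the other way, with 9.5, 9.79 and 10.14 against 9.20, 9.36 and 9.41. Every truncated array was lower, by 0.49 on average (SE 0.17, adjusted p = 0.226).

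The remaining 3 probe sets of Mcl1, whose names end in _x_at and which may cross-hybridise, differed by −0.44, −0.47 and −0.57 (adjusted p = 0.551, 0.388 and 0.487). They were highest on wild-type replicate 3, where they reached 11.08, 10.96 and 10.79. Within the 4 low spike-in arrays the differences were −0.20, −0.24 and −0.39, and within the high spike-in pair −0.92, −0.92 and −0.93. For 1416880_at these values were −0.34 and −0.78, and for 1416881_at they were 0.30 and 0.54. With the fibroblast mean as a covariate, which called 7.13% of all probe sets, 1416881_at passed upward (0.38, adjusted p = 0.0467) and 1456381_x_at passed downward (−0.56, adjusted p = 0.0304), in opposite directions within 1 gene. The mean of all 6 probe sets gave −0.24 (adjusted p = 0.54 at the gene level). These data therefore give no single direction for Mcl1 RNA, and which transcript ends the probe sets read was not analysed here.

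**Figure D3:**
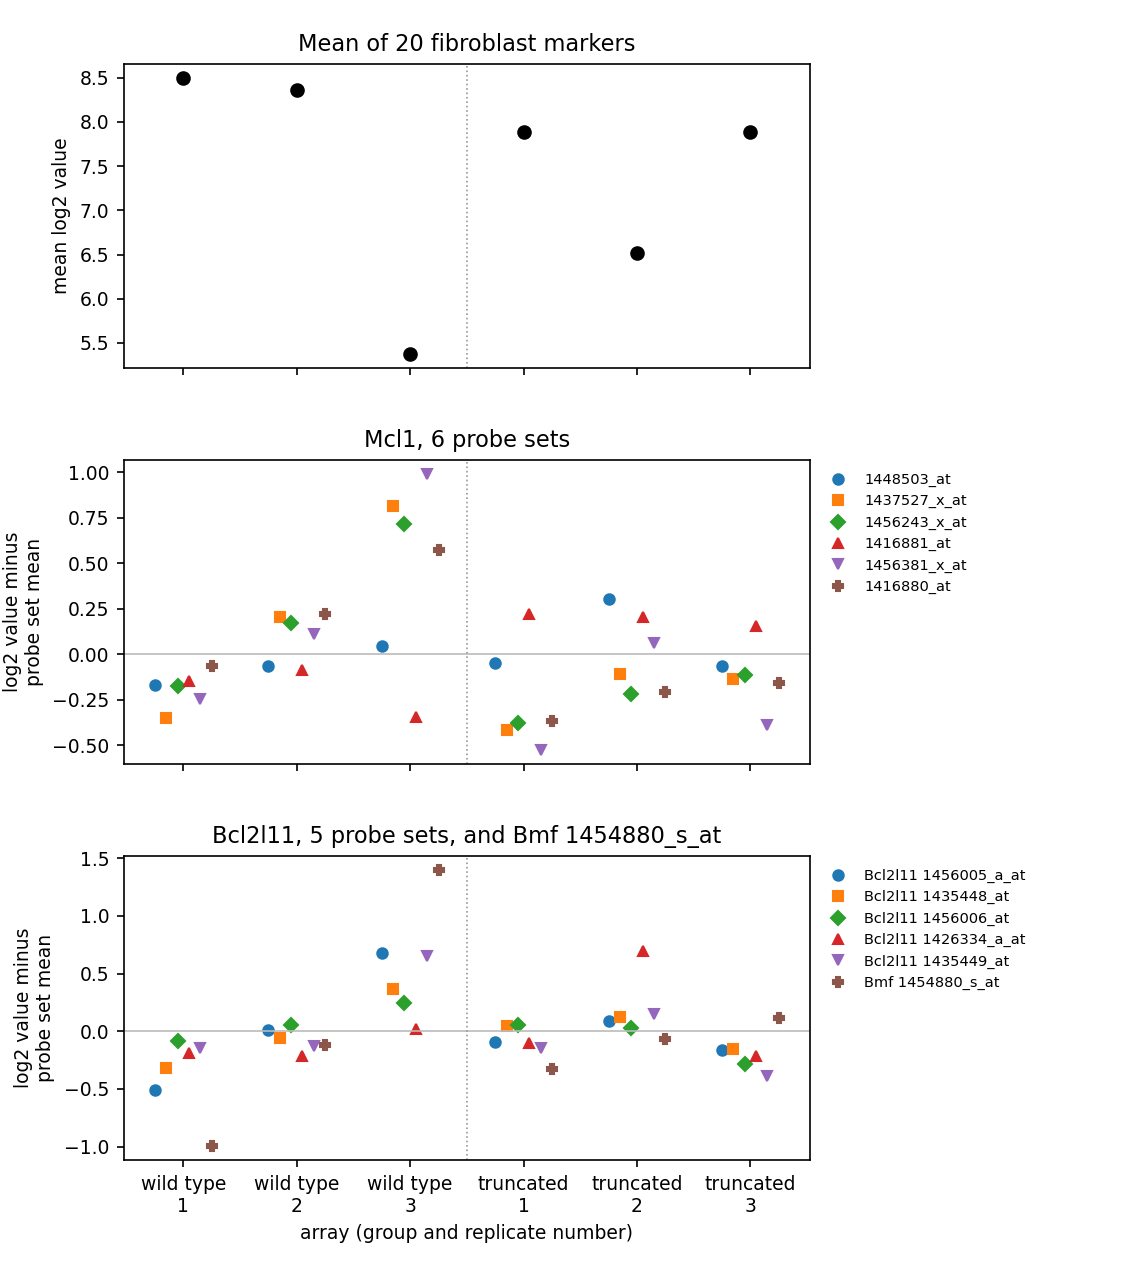
Top, mean log2 value of 20 fibroblast markers on each array; middle and bottom, log2 values of the probe sets of Mcl1, of Bcl2l11 and of Bmf 1454880_s_at on each array, minus each probe set's mean over the 6 arrays. Wild-type replicate 3 has the lowest fibroblast mean, 5.37, and the highest values of 4 Mcl1 probe sets, 4 Bcl2l11 probe sets and Bmf 1454880_s_at.

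Bcl2l1 encodes Bcl-xL, like Mcl-1 a pro-survival target of LIF and STAT3 signalling. Its brightest probe set, 1420888_at, read 8.0, 7.68 and 7.61 on the wild-type and 7.63, 7.68 and 7.66 on the truncated arrays. The truncated values all fell inside the wild-type range, and the difference was −0.11 (95% interval −0.39 to 0.18, limma adjusted p = 0.779). The 3 other probe sets differed by −0.037 to 0.16 (adjusted p 0.822 to 0.941). Leaving out wild-type replicate 1 turned the brightest one to 0.012.

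Bcl2, the founding member of the family, was read by 5 probe sets, of which only 1422938_at lay above the limit of clear expression. It read 5.89, 5.87 and 5.74 on the wild-type and 6.17, 5.68 and 5.83 on the truncated arrays. The groups overlapped, with a difference of 0.065 (95% interval −0.26 to 0.39, limma adjusted p = 0.898). The dimmest, 1443837_x_at, read 2.88, 2.81 and 2.85 against 3.19, 3.38 and 3.28, so that every truncated array was higher. Its difference of 0.43 (SE 0.088) did not pass (adjusted p = 0.0556); it passed with a trended and robust variance (0.0264), with the spike-in arrays as a block (0.0426) and with the fibroblast covariate (0.0368). All 6 values lay near the bottom of the arrays' scale, and the other 3 dim probe sets differed by −0.22 to 0.25.

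Bcl2l11 encodes Bim, the BH3-only protein that ERK signalling keeps low and that forkhead factors of the FoxO family and EGR1 are known to induce. Its brightest probe set, 1456005_a_at, read 8.33, 8.85 and 9.52 on the wild-type and 8.75, 8.93 and 8.68 on the truncated arrays. The truncated values lay inside a wide wild-type range, whose top was replicate 3. The difference was −0.12 (95% interval −0.78 to 0.55, limma adjusted p = 0.913), and without wild-type replicate 3 it was 0.20. The 4 other probe sets differed by −0.26 to 0.26, with limma adjusted p of 0.715 to 0.993 and unadjusted p of 0.311 to 0.967. Among these, 1426334_a_at stood out on 1 array, truncated replicate 2, with 6.32 against 5.41 to 5.64 on the other 5.

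The gene Egr1, on the list of regulators below, fell 3.21-fold, so the start regions of the members were searched for the letters EGR1 binds. RefSeq promoters of the mouse assembly GRCm38.p6 were used for 8 of the members, with 13 start sites in all. No window of Bik was searched, and none of Pmaip1, the member that passed the test. The 250 bases before each start were searched on both strands for the EGR1 motif GCGNGGGCG, the forkhead motif TGTTTAC, the STAT motif TTCNNNGAA and the p53 half-site. Of the 13 windows, 1 held the EGR1 letters and the forkhead letters, that of 1 of the 2 starts of Bcl2l11, and 1 held a p53 half-site, that of 1 of the 3 starts of Bmf; none held the STAT letters. Of all 32851 windows 4.70%, 3.17%, 7.13% and 7.02% held an EGR1, forkhead, p53 half-site and STAT match. The 2 windows are shown because they are the only searched member windows with a match. Capitals mark the matches: in Bcl2l11 (chr2:128125788-128126037, plus strand) the forkhead letters on the opposite strand, 227 bases before the start, and the EGR1 letters on the gene's strand, 50 bases before it, and in Bmf (chr2:118544588-118544837, minus strand) the p53 half-site, which reads as a match on both strands, 213 bases before the start.
Bcl2l11: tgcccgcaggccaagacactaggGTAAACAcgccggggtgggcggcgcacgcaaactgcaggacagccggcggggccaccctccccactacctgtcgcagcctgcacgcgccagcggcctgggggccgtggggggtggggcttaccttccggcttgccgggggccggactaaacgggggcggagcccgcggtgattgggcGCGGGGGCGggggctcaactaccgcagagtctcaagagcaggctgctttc
Bmf: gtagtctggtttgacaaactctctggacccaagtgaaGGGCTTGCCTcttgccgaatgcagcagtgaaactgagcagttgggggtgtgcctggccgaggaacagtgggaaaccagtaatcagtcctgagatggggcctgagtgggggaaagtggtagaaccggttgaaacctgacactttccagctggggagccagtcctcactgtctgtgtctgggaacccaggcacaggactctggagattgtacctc
The matches do not overlap each other. A match describes letters and not a bound site, and neither Bcl2l11 nor Bmf passed the test.

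Bmf encodes a BH3-only protein linked to loss of cell attachment. Its probe set 1454880_s_at varied more between the wild-type arrays than any other of the 33 (SD 1.21), with 4.8, 5.68 and 7.20 on the wild-type and 5.47, 5.73 and 5.91 on the truncated arrays. The truncated values lay inside the wild-type range, and the highest value again was wild-type replicate 3. The difference was −0.19 (95% interval −1.49 to 1.11, limma adjusted p = 0.928). Within the low spike-in arrays alone it was 0.45, against −1.47 for the high spike-in pair, so this probe set gave no direction. The brighter 1458325_x_at and the dim 1422995_at differed by 0.068 and 0.022 (adjusted p = 0.936 and 0.960).

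Bid, which caspase-8 cleaves to carry death receptor signals to mitochondria, read 8.73, 8.44 and 8.33 on the wild-type and 8.37, 8.73 and 8.56 on the truncated arrays by its brightest probe set, 1417045_at. The groups overlapped over nearly their whole range, with a difference of 0.053 (95% interval −0.28 to 0.39, limma adjusted p = 0.922). Its other 2 probe sets differed by −0.0067 and −0.14 (adjusted p = 0.994 and 0.859). Bik, a BH3-only protein of the endoplasmic reticulum, was read by 3 probe sets with differences of −0.11 to 0.031 (adjusted p 0.733 to 0.951). Its brightest, 1449836_x_at, lay between 5.39 and 5.67 on all 6 arrays.

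Bak1 encodes Bak, an effector that forms the pore in the outer membrane. Its brighter probe set, 1418991_at, read 7.02, 6.92 and 6.48 on the wild-type and 6.65, 6.65 and 6.70 on the truncated arrays. The truncated values fell inside the wild-type range, and the difference was −0.14 (95% interval −0.49 to 0.21, limma adjusted p = 0.761). Bok, an effector of the same fold that acts without needing Bak or Bax, read 7.33, 6.94 and 6.82 against 6.89, 6.89 and 6.88 on 1417040_a_at. Its difference was also −0.14 (95% interval −0.47 to 0.19, adjusted p = 0.738), and 0.0078 without wild-type replicate 1, the one array that stood above the rest.

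The groups did not overlap for 4 of the 33 probe sets, or 12.1%, against 18.6% of all probe sets. These were 1418203_at of Pmaip1, 1416881_at and 1416880_at of Mcl1 and 1443837_x_at of Bcl2. By the brightest probe set of each gene it was 1 of 10, Pmaip1, against 22.4% of all genes. Neither share among members was above that of the array.

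In the rest of the family, 11 of 16 listed genes were measured and none passed by limma, with a median difference of 0.033 over a range of −0.35 to 0.53; at an unadjusted p under 0.05, which 18.5% of all genes met, there were 2 of the 11, Bcl2l2 and Bcl2l15. Bbc3 (Puma), which p53 induces as it does Pmaip1, read 6.89, 7.14 and 7.42 on the wild-type and 7.52, 7.35 and 7.54 on the truncated arrays. The groups overlapped, and the difference was 0.32 (95% interval −0.035 to 0.67, adjusted p = 0.325). Bcl2l2 (Bcl-w), a pro-survival gene, was at 6.57 ± 0.18 and 6.22 ± 0.20 (SD, n = 3 each), lower by 0.35 on average and on every truncated array, but short of the threshold (adjusted p = 0.249); its 3 other probe sets differed by −0.11 to 0.048. Bad, a BH3-only gene controlled by growth factor signalling, differed by −0.10 (adjusted p = 0.838). Bcl2l15 (named after its value was seen) lay below the limit in both groups, at 3.68 ± 0.14 and 4.21 ± 0.18. Bax was not analysed here.

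Regulators of the family held 5 of the 8 calls on the lists around it, a share that was 5 of 18 with the fibroblast covariate (10.8% of all genes called) and 6 of 16 with the spike-in block (8.62%). These lists too were chosen with earlier results of these data known, so the shares of all genes beside the counts are no test of them. Of 16 genes on a list of transcription factors acting on the family and of proteins that set the turnover of Mcl-1, 4 rose and 1 fell, with a median difference of 0.11; across the array 2.7% rose and 1.97% fell. By limma at an unadjusted p under 0.05 there were 6 of the 16, against 18.5% of all genes. The ubiquitin ligase Huwe1 (Mule), which marks Mcl-1 for degradation, read 9.63, 9.84 and 9.63 on the wild-type and 10.89, 10.37 and 10.90 on the truncated arrays. Every truncated array was higher, by 1.02 on average (SE 0.17, limma adjusted p = 0.0222). The deubiquitinase Usp9x, which removes those marks and stabilises Mcl-1, read 8.92, 9.06 and 9.16 against 9.99, 10.17 and 10.11. It rose by 1.05 (SE 0.10, adjusted p = 0.00461), and all 7 of its probe sets passed, with rises of 0.95 to 1.23. Genes with opposite effects on the Mcl-1 protein thus both rose, but of the 5 probe sets of Huwe1 only the brightest passed. The lowest difference, −0.027, was that of 1443183_at, which lay below the limit of clear expression at 3.0 and 2.97. The other probe sets of Huwe1 differed by 0.29 to 1.02, and the mean over all 5 by 0.53 (adjusted p = 0.0404). Fbxw7, the substrate receptor of another ligase for Mcl-1, was named after its value was seen; it rose by 0.61 (SE 0.13, adjusted p = 0.0457), and neither of its 2 probe sets passed over all probe sets. The call for Fbxw7 was also lost with a trended and robust variance (0.051), the low spike-in arrays alone (0.0697) and without _s_at probe sets (0.195).

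Huwe1 and Usp9x are X-linked, and 19.6% of X-linked genes rose. The transcription factor Trp73 (p73), a relative of p53 that can induce Noxa and Puma, read 4.49, 4.22 and 4.66 on the wild-type and 5.50, 5.21 and 5.73 on the truncated arrays. Every truncated array was higher, by 1.02 (SE 0.17, limma adjusted p = 0.0236), from a wild-type mean below the limit of clear expression; its second probe set differed by 0.28 and did not pass. Egr1, an immediate early gene of ERK signalling, fell from 10.22 ± 0.22 to 8.54 ± 0.39 (SD, n = 3 each), by 1.68 (adjusted p = 0.00966). Trp53 itself was not analysed here. The forkhead genes Foxo1, Foxo3 and Foxo4 and the gene Stat3 did not pass, with differences of −0.46, 0.31, 0.013 and 0.017 (adjusted p = 0.201, 0.668, 0.978 and 0.985).

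Downstream of the mitochondria, 17 of 19 genes of the apoptosome, the caspases and their inhibitors were measured, and 1 rose. Across the array 2.7% of genes rose. Aifm1, whose flavoprotein (AIF) serves respiration in the mitochondrion and can leave it during cell death, read 9.68, 9.55 and 9.82 on the wild-type and 10.34, 10.36 and 10.24 on the truncated arrays. Every truncated array was higher, by 0.63 (SE 0.10, limma adjusted p = 0.0222). Xiap, the caspase inhibitor, differed by 0.65 on its brightest probe set and did not pass (adjusted p = 0.0706). Of its 7 probe sets 1 passed over all probe sets, 1456088_at, with means of 5.5 and 6.41 (difference 0.91, adjusted p = 0.0373). Both genes are X-linked. The list's median difference was 0.04. By limma at an unadjusted p under 0.05 there were 4 of the 17, against 18.5% of all genes. Of 11 genes of the death receptor pathway, which reaches the family through Bid, 3 had a limma unadjusted p under 0.05, against the same 18.5%. After adjustment 1 rose, against 2.7% of all genes. It was the receptor Tnfrsf21, with a rise of 0.71 (SE 0.15, adjusted p = 0.0465). Its other probe set differed by 0.069. The call for Tnfrsf21 was lost with median centring (0.059), a trended and robust variance (0.0503), the low spike-in arrays alone (0.0632), the mean of both probe sets (0.39, adjusted p = 0.196) and without _s_at probe sets (0.069, adjusted p = 0.894). None of 12 genes of outer membrane channels, Bid receptors and fission proteins passed by limma, with a median of −0.08 and a range of −0.43 to 0.63; at an unadjusted p under 0.05 there were 2 of the 12, Vdac1 and Oma1, against the 18.5% of all genes.

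Of 18 targets of p53 outside the family, 1 rose, against 2.7% of all genes. It was the antiproliferative gene Btg2, with a rise of 0.97 (SE 0.20, limma adjusted p = 0.0488). Neither of its 2 probe sets passed over all probe sets (0.0612 and 0.267), and their mean did not pass (0.79, adjusted p = 0.0789). With the fibroblast covariate 5 of the 18 were called, against 10.8% of all genes. By limma at an unadjusted p under 0.05 there were 7 of the 18, against 18.5% of all genes. The median difference was 0.33 and 14 of the 18 were above 0, against 9430 of the 18193 genes. The values of the classical targets differed: Cdkn1a, the cell cycle inhibitor p21, by 0.011 (adjusted p = 0.993), Mdm2, the ligase of p53, by 0.48 (0.127), and Phlda3, an inhibitor of AKT, by 0.70 (0.0753). Pmaip1 is itself a p53 target, and its 2.04 was larger than the difference of every one of the 18.

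**Figure D4:**
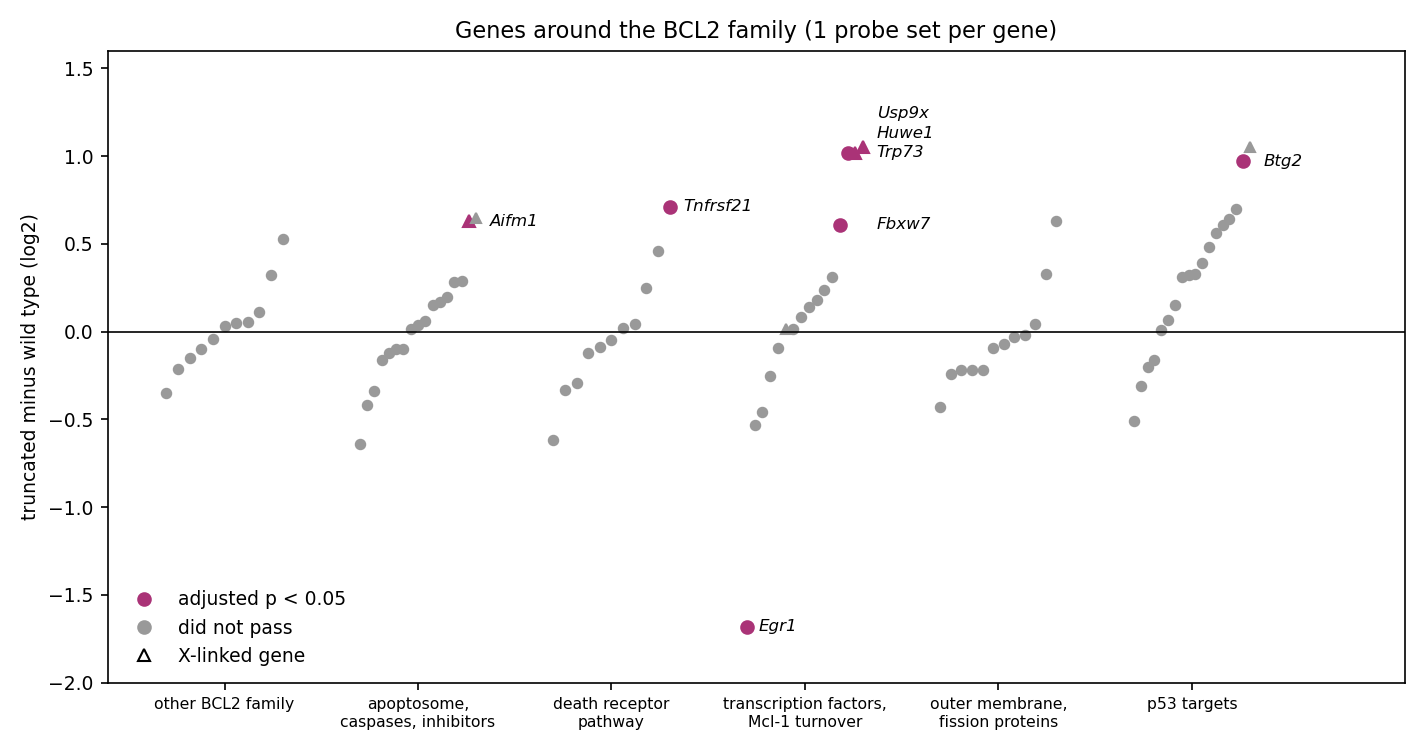
Difference between truncated and wild-type means of 85 genes on 6 lists around the BCL2 family, each gene by its brightest probe set, ordered within a list (purple, adjusted p under 0.05; grey, did not pass; triangles, X-linked). Over the 6 lists 7 genes rose and 1, Egr1, fell, where 2.7% of all genes rose and 1.97% fell. Of these 8 genes 3 are X-linked, as are 6 of the 85, and 19.6% of all X-linked genes rose.

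Of these 8 genes Usp9x alone kept its call with each array left out, as Pmaip1 did; its adjusted p reached at most 0.0372 over the alternatives. Egr1 lost it without wild-type replicate 2 (0.0564) and without truncated replicate 1 (0.0721), and Trp73 without wild-type replicate 1 or 2 or truncated replicate 1 or 3 (0.0614 to 0.122). Huwe1 lost it without the same 4 arrays (0.0644 to 0.114), and Aifm1 and Btg2 without any of the 5 arrays other than wild-type replicate 3 (0.0607 to 0.112 and 0.0835 to 0.202). Fbxw7 and Tnfrsf21 lost it without any of the 6 (0.0522 to 0.181 and 0.0524 to 0.168). All of them kept their direction.

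The arrays were also searched for genes whose values over the 6 arrays run most like those of the members with the lowest adjusted p. For Pmaip1 these were Scamp5, Htra1 and Cdh4, with Pearson r of 0.9979, 0.9977 and 0.9966 over 6 arrays, and 24 genes had an r above 0.99. Htra1, a secreted serine protease, rose by 1.61 and Cdh4, a cadherin, by 1.05 (limma adjusted p = 0.00322 and 0.00733). For Bok they were Ikzf2 (0.9987), 4933423K11Rik (0.9936) and Tnmd (0.9935), and for Mcl1 they were Eps8l1 (0.9939), 4931402G19Rik (0.9937) and Clec1b (0.9811), none of which passed (adjusted p 0.607 to 0.879). The points are the same 6 arrays in 2 groups throughout, so such an r includes any difference between the groups. The genes were picked by that r, so whether they passed follows largely from the member's own pattern and is no separate test.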

How the data were processed

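The authors deposited log2 expression values per probe set; that they are log2 follows from their range, and the summarisation and normalisation are not given in the sources used here. Values were used as deposited, without 64 control probe sets. The other 45037 were named from the platform annotation with symbols updated by Entrez identifier (0 changed), and those with several symbols named no gene. A gene (18193 in all) stands for its brightest probe set by mean. The fit was limma 3.58.1 (lmFit, eBayes; R 4.3.3) with group as the only term, two-sided. Benjamini-Hochberg adjustment ran over every probe set for members and over every gene for the rest, with a threshold of 0.05. The number of arrays limits the precision.

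Named were all member probe sets, Bax, Bad, Bbc3 and Bcl2l2, up to 4 called genes per list, and 3 correlated genes for each of the 3 members of lowest adjusted p; Fbxw7, Foxo1, Foxo3, Foxo4, Stat3, Xiap, Vdac1, Oma1, Cdkn1a, Mdm2, Phlda3, Bcl2l15, Kdm5d and Xist were added after their values were seen. The members and lists were chosen with earlier results of these data known. On simulated data the probe set fit recovered 59 of 100 changes of 1 log2 unit and 91 of 100 of 2 units. The simulated noise was independent between probe sets, without the fibroblast and spike-in differences between arrays. Those counts are therefore not recovery rates for the real arrays.

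Alternatives were quantile normalisation, median centring, a replicate block, leaving out dim or cross-hybridising probe sets, a trended and robust variance, each array left out, the spike-in pair as a block or left out, the fibroblast mean as a covariate, and the mean of a gene's probe sets. Promoters came from RefSeq, GRCm38.p6. Figures used matplotlib 3.10.9.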

Additional observations from a re-analysis of the deposited data

How the results depend on the processing

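Pmaip1 kept its direction and call under all 16 alternatives. The 1261 probe sets called became 731 with the replicate block, 2366 with the spike-in arrays as a block, 3213 with the fibroblast covariate and 149 to 1669 with each array left out; the 850 genes became 466, 1569, 1964 and 129 to 1191, and the 8 genes of the pathway lists 5, 16, 18 and 1 to 13. Of the member probe sets 2 were called with a trended and robust variance, 2 with the spike-in block and 4 with the fibroblast covariate. Same-numbered arrays did not deviate together (r = 0.243, −0.304 and −0.102), so the numbers were not taken as pairs; with the replicate block Pmaip1 passed at 0.0153. Aifm1, Huwe1 and Fbxw7 did not (0.0769, 0.0623 and 0.0572).

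All reversals concerned differences that had not passed, and none passed after it. Quantile normalisation turned 1437122_at of Bcl2 to −0.0042, 1425716_s_at of Bak1 to −0.014 and 1448560_at of Bid to 0.013. Median centring turned 1437122_at to −0.0068, 1425716_s_at to −0.012, 1435448_at of Bcl2l11 to −0.016 and 1422995_at of Bmf to −0.0025. In the 4 low spike-in arrays 1456005_a_at of Bcl2l11 was 0.12, 1425716_s_at −0.10, 1417045_at of Bid −0.12, 1420363_at of Bik −0.060 and 1454880_s_at of Bmf 0.45. The mean of all probe sets gave 0.017 for Bcl2l1, −0.24 for Mcl1, −0.031 for Bid and −0.034 for Bmf, and without _x_at and _s_at probe sets Bik was 0.031. With each array left out, differences ranged as follows: Bcl2 1422938_at −0.074 to 0.17 and 1437122_at −0.063 to 0.13; Bcl2l1 1420888_at −0.18 to 0.012, 1420887_a_at −0.056 to 0.31, 1426191_a_at −0.13 to 0.048 and 1426050_at −0.018 to 0.11. For Bcl2l11 they were −0.40 to 0.20 (1456005_a_at), −0.15 to 0.19 (1435448_at), −0.025 to 0.43 (1426334_a_at) and −0.40 to 0.0037 (1435449_at). For Bak1 1425716_s_at they were −0.070 to 0.066, and for Bid −0.034 to 0.17, −0.17 to 0.12 and −0.35 to 0.049. For Bik they were −0.089 to 0.050 (1449836_x_at) and −0.050 to 0.13 (1420363_at), for Bmf −0.11 to 0.22, −0.74 to 0.46 and −0.048 to 0.081, for Bok −0.25 to 0.0078 and for Bad −0.24 to 0.088. The cause was not tested.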
